A study of Mus musculus with 9 samples.

Results

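The EGF receptor system was examined in 8 genes of the 30411 with a deposited FPKM value: the receptor genes Egfr and Erbb2, the ligand genes Hbegf, Areg, Ereg, Tgfa and Btc, and the feedback inhibitor gene Errfi1. They were taken by gene symbol, and each symbol matched 1 gene. FPKM are the authors' fragment counts per kilobase of transcript and library size. The RNA came from HEI-OC1 cells, a conditionally immortalised line made from the organ of Corti of a transgenic mouse, in 3 groups of 3 libraries. Control cells were untreated, the H2O2 group was given hydrogen peroxide, an oxidant, and the pretreated H2O2 group was given a selenium-carrying nanoreactor before H2O2. The nanoreactor is named SCGS in the titles, HCS@Se in the descriptions and HSC@Se in the series text, which were assumed to be 1 agent. The labels state no dose or duration, and no library analysed here had the nanoreactor alone, so an effect of the nanoreactor on these cells and an effect on their response to H2O2 cannot be told apart. Nothing says that the libraries of a group came from separate cultures, so p-values measure the spread between these libraries, which may be technical.

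The EGF receptor is a membrane tyrosine kinase that pairs with itself or with other receptors of its family when a ligand binds. ERBB2 has no known ligand of its own and is a preferred partner of the other receptors. The ligands are made as membrane-anchored precursors and are released by metalloproteases, and the active receptor signals through Ras and ERK, through PI3K and through STAT proteins. Signalling induces inhibitors that limit it, among them the ERRFI1 protein (MIG6), which binds the kinase domain of the receptor. In the cochlea, the family has been studied in the proliferation of supporting cells and in signalling between neurons and glia.

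Libraries held 55395418 to 67215208 deposited counts, and 20102 to 20920 genes had a count in the control and H2O2 libraries against 24043 to 24141 in the pretreated ones. The counts are estimates in which 4, 8 and 12 are over-represented, and 12 counts were taken as the floor of detection. That is about 3 fragments if 4 counts stand for 1 fragment, which was assumed. Counts of 1, 2 and 3 also occurred, at 7779, 6750 and 4842 positions, against 9836 for 4. Of 9 hair cell markers, Atoh1 and Slc26a5 had no count in any library, and the summed level was 1.88 to 1.97 FPKM in control, 1.31 to 1.46 in H2O2 and 1.57 to 1.68 in pretreated H2O2, most of it from Myo6. Among 9 supporting cell markers Sox2 and Prox1 had no count, and the sums were 42.7 to 45.2, 42.6 to 44.7 and 22.3 to 23.7 FPKM. Cdkn1b was the largest part in control and H2O2, with means of 27.4, 25.0 and 11.0 FPKM in the 3 groups. Jag1 and Lfng were also lowest in pretreated H2O2. S100a1, at 8.80, 13.3 and 8.85 FPKM, and Fgfr3, at 1.03, 0.912 and 1.15, were not. Summed fibroblast and mesenchyme markers stood at 1235 to 1244, 1203 to 1214 and 1031 to 1039 FPKM, and their members differed in course. Vim had means of 577, 781 and 585 FPKM and Fn1 of 251, 150 and 255. The means of Col1a1, Col1a2, Col3a1, Pdgfra, Pdgfrb and Twist1 were lower in each group than in the one before. Epithelial markers, of which Epcam had no count in control and H2O2, summed to 0.0954 to 0.295, 0.339 to 0.507 and 0.818 to 1.26 FPKM. Of these 7 markers, 6 held at most 12 counts over the control libraries, and 3 did over each of the other groups. Krt8 was the largest part, at 0.154, 0.239 and 0.462 FPKM. Cdh1, Cldn6 and Cldn7 also rose at each step, while Krt18 was lowest in H2O2 and Esrp1 had no count. The epithelial sum, which is near the floor, moved in the same order as the summed ligands described here. The neuronal sum did too, at 1.09 to 1.57, 1.92 to 2.26 and 3.18 to 3.83 FPKM, but nearly all of it came from Tubb3. Rbfox3 and Neurod1 had no count in any library. Immune markers, of which Ptprc had no count, summed to 2.15 to 2.59, 3.65 to 5.08 and 4.93 to 5.37 FPKM, mostly from Cd68 in H2O2 and pretreated H2O2, and glial markers to 0.0648 to 0.152, 0.0783 to 0.139 and 0.307 to 0.502 FPKM. The part of other cell types in the results was not tested, and fewer cells of a type and less RNA per cell cannot be told apart in bulk RNA.

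Positions are on the mouse build GRCm38. Egfr (ENSMUSG00000020122) spans 16752203 to 16918158 and Erbb2 (ENSMUSG00000062312) 98412470 to 98437716 on the plus strand of chromosome 11. Errfi1 (ENSMUSG00000028967) lies on the plus strand of chromosome 4 from 150853919 to 150868892, and Tgfa (ENSMUSG00000029999) on that of chromosome 6 from 86195223 to 86275719. Of the other ligand genes, 3 are neighbours on chromosome 5: Ereg (ENSMUSG00000029377, plus strand, 91074622 to 91093646), Areg (ENSMUSG00000029378, plus strand, 91139599 to 91148432) and Btc (ENSMUSG00000082361, minus strand, 91357261 to 91402994).

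Promoters of 6 of the 8 genes, all but Ereg and Hbegf, were matched in a RefSeq table of GRCm38.p6 that holds 250 bases before and 50 after each start, with 7 windows in all. Both strands were searched for the cAMP response element (CRE, TGACGTCA), the AP-1 site TGANTCA and the antioxidant response element (ARE, TGACNNNGC). CRE and ARE share their first 4 letters. A CRE was found in the Areg window, 61 bases before the start, and in 1 of the 2 Errfi1 windows, 51 bases before the start. No AP-1 or ARE match was found in the 7 windows. Over all 32851 promoters of the table, 1.79% held a CRE, 7.81% an AP-1 match and 12.4% an ARE match. The 2 windows with a CRE are shown, with the CRE in capitals, because Areg had the largest fold change against control and Errfi1 is the inhibitor. In pretreated H2O2 against H2O2 the largest fold change was that of Ereg, which had no window. They are chr5:91139349-91139648 and chr4:150854820-150855119, both on the plus strand. A match of letters is a description and not evidence of binding.
Areg: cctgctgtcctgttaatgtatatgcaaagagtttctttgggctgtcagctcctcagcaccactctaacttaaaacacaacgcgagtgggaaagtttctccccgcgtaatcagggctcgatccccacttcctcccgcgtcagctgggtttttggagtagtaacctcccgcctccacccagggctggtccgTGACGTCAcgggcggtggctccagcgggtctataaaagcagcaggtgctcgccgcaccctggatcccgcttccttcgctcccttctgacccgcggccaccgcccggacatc
Errfi1: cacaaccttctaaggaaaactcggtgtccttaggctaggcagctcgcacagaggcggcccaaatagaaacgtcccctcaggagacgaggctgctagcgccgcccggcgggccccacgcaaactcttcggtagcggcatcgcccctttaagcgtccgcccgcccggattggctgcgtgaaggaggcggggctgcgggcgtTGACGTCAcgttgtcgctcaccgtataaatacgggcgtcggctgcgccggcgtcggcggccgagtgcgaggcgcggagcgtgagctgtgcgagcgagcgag

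H2O2 was set against control to find what the oxidant did to these genes. Ligand RNA for Hbegf and Areg rose, RNA for Erbb2, Errfi1 and Egfr fell, the last with a sign that turned under length and GC offsets, and Ereg and Btc did not pass the test. Of the 7 genes that passed the filter on low counts, all but Tgfa, 2 were called higher and 3 lower, at a Benjamini-Hochberg adjusted p under 0.05 in edgeR's quasi-likelihood test over 18092 genes. Of all genes tested, 48.7% were called, 24.6% higher and 24.1% lower. The libraries of the groups did not overlap for these 5 genes, but the share of all tested genes without overlap is not given here.

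The second comparison, of pretreated H2O2 with H2O2, asks what pretreatment changed in cells given the oxidant. Ereg, Areg, Hbegf and Errfi1 rose and Erbb2 fell, while Egfr and Btc did not pass the test. These 4 higher and 1 lower of 7 tested stand beside 63.6% of all genes called, 32.4% higher and 31.3% lower. Against control, pretreated H2O2 had 4 of the 7 higher and 2 lower, with 63.1% of all genes called, 33.7% higher and 29.5% lower. The split of all calls depended on the scale. On the authors' FPKM tested with limma, 3658 genes were higher and 5543 lower in pretreated H2O2 than in H2O2, and 3798 higher and 5071 lower than in control. The 3 comparisons share libraries in pairs, so their values are given side by side and are not independent.

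**Figure D1:**
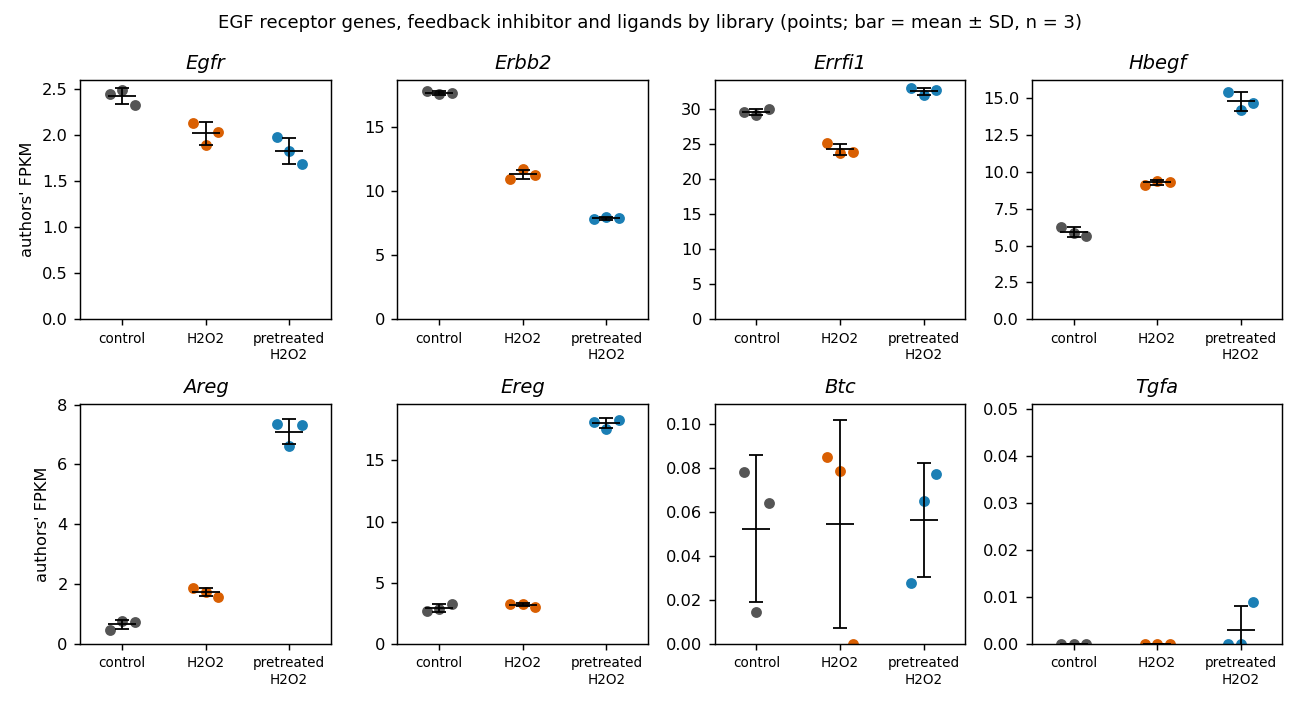
The authors' FPKM of the 8 genes in each of the 9 libraries (points), with the mean and SD of each group of 3 libraries (bars); each panel has its own linear axis from 0. Ereg lies between 2.65 and 3.28 FPKM in the 6 control and H2O2 libraries and between 17.6 and 18.3 FPKM in the pretreated ones, while Erbb2 steps down from 17.7 to 11.3 and 7.90 FPKM.

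Among the receptors, Erbb2 was the more abundant. Its level was 17.8, 17.6 and 17.6 FPKM in the control libraries, 11.0, 11.7 and 11.2 in H2O2 and, with pretreatment, 7.81, 8.01 and 7.88. The groups were fully separated, in that order. The means were 17.7 ± 0.139, 11.3 ± 0.376 and 7.90 ± 0.104 FPKM (SD, n = 3). Erbb2 fell 1.55-fold with H2O2 (log2 fold change -0.63, SE 0.0328, adjusted p = 6.53e-09 by edgeR) and a further 1.40-fold with pretreatment (log2 fold change -0.49, SE 0.0334, adjusted p = 6.13e-08 by edgeR). Against control the pretreated level was 2.17-fold lower (log2 fold change -1.12, SE 0.0333, adjusted p = 2.56e-11 by edgeR). With per-library offsets for transcript length and GC content, the drop with H2O2 was smaller, at a log2 fold change of -0.24, and the call held. Erbb2's longest transcript has 5012 bases and a GC content of 57.3%, against medians of 2839 bases and 49.5% over the tested genes.

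Egfr was scarcer and moved less. The control libraries held 2.45, 2.50 and 2.32 FPKM, the H2O2 libraries 2.14, 1.89 and 2.03, and the pretreated ones 1.98, 1.83 and 1.69. Every control library lay above the other 6, while the H2O2 and pretreated libraries overlapped. In H2O2 the mean of 2.02 ± 0.123 FPKM was 1.19-fold below the control mean of 2.42 ± 0.0884 (log2 fold change -0.25, SE 0.0714, adjusted p = 0.0111 by edgeR). This call depended on the processing: without H2O2 replicate 2 the adjusted p was 0.0521 by edgeR, and with the length and GC offsets the sign turned (log2 fold change 0.40, adjusted p = 0.00032 by edgeR). Egfr has a longest transcript of 10208 bases with a GC content of 44.4%, against medians of 2839 bases and 49.5% over the tested genes. Pretreated H2O2, at 1.83 ± 0.144 FPKM, differed from H2O2 by a log2 fold change of -0.11 (95% interval -0.27 to 0.05, adjusted p = 0.199 by edgeR), a comparison that was called with the offsets (log2 fold change -0.35, adjusted p = 0.000481). Against control it was 1.28-fold lower (log2 fold change -0.36, SE 0.0716, adjusted p = 0.000759 by edgeR), and with the offsets that value was 0.05 (adjusted p = 0.510). The direction of Egfr thus depended on this setting.

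Errfi1, the feedback inhibitor, was the most abundant of the 8 genes in every group. Its level was 29.6, 29.2 and 30.0 FPKM in control, 25.1, 23.7 and 23.9 in H2O2 and, with pretreatment, 32.9, 32.0 and 32.6. The H2O2 libraries were the lowest and the pretreated ones the highest, with no overlap. From 29.6 ± 0.410 FPKM in control it fell 1.21-fold to 24.3 ± 0.772 in H2O2 (log2 fold change -0.28, SE 0.0285, adjusted p = 3.75e-06 by edgeR). In pretreated H2O2 it stood at 32.5 ± 0.509 FPKM, 1.37-fold above H2O2 (log2 fold change 0.45, SE 0.0284, adjusted p = 2.67e-08 by edgeR) and 1.13-fold above control (log2 fold change 0.18, SE 0.0283, adjusted p = 0.000129 by edgeR).

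Hbegf encodes heparin-binding EGF-like growth factor, a ligand of the EGF receptor and of ERBB4, and lies at 36504927 to 36515805 on the minus strand of chromosome 18 (ENSMUSG00000024486). It measured 6.27, 5.83 and 5.66 FPKM in control, 9.11, 9.39 and 9.31 in H2O2 and, with pretreatment, 15.4, 14.2 and 14.7. It was higher in each group than in the one before, without overlap. The mean rose 1.58-fold from 5.92 ± 0.319 to 9.27 ± 0.146 FPKM with H2O2 (log2 fold change 0.66, SE 0.0478, adjusted p = 1.43e-07 by edgeR). It rose 1.63-fold more, to 14.8 ± 0.620 FPKM, in pretreated H2O2 (log2 fold change 0.70, SE 0.0466, adjusted p = 4.67e-08 by edgeR), which was 2.57-fold above control (log2 fold change 1.36, SE 0.0478, adjusted p = 1.22e-10 by edgeR).

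Areg encodes amphiregulin, a ligand of the EGF receptor, and was the scarcest of the 3 abundant ligands in each group. The libraries held 0.462, 0.748 and 0.737 FPKM in control, 1.87, 1.74 and 1.58 in H2O2 and, with pretreatment, 7.36, 6.62 and 7.31. The groups were apart by more than the spread within them. From 0.649 ± 0.162 FPKM it rose 2.67-fold to 1.73 ± 0.145 with H2O2 (log2 fold change 1.42, SE 0.184, adjusted p = 3.02e-05 by edgeR). The pretreated mean of 7.09 ± 0.414 FPKM was 4.18-fold above H2O2 (log2 fold change 2.06, SE 0.169, adjusted p = 3.32e-07 by edgeR) and 11.2-fold above control (log2 fold change 3.48, SE 0.186, adjusted p = 5.66e-09 by edgeR). The control level rested on 156 deposited counts over 3 libraries, against 436 in H2O2 and 1824 in pretreated H2O2, so the control side limits the precision. At the assumed 4 counts per fragment, the fragments behind these values would be fewer. With all counts divided by 4, the log2 fold change with H2O2 was 1.41 (adjusted p = 3.23e-05 by edgeR). On log2 of FPKM plus 1, which understates changes of scarce genes, the rise with H2O2 was 0.73.

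Ereg encodes epiregulin, a ligand of the EGF receptor and of ERBB4, and was called in both comparisons that involve pretreatment and not in H2O2 against control. Its control libraries stood at 2.65, 2.83 and 3.25 FPKM and its H2O2 libraries at 3.28, 3.27 and 3.03, which overlap. The pretreated libraries stood at 18.2, 17.6 and 18.3 FPKM, far above the other 6. Between control, at 2.91 ± 0.303 FPKM, and H2O2, at 3.19 ± 0.139, the log2 fold change was 0.14 (95% interval -0.01 to 0.30, adjusted p = 0.115 by edgeR). That comparison passed the threshold without control replicate 3 (log2 fold change 0.23, adjusted p = 0.00851 by edgeR) and with the length and GC offsets (log2 fold change 0.30, adjusted p = 0.0107). Pretreated H2O2, at 18.0 ± 0.403 FPKM, was 5.77-fold above H2O2 (log2 fold change 2.53, SE 0.0700, adjusted p = 1.48e-11 by edgeR) and 6.37-fold above control (log2 fold change 2.67, SE 0.0707, adjusted p = 8.56e-12 by edgeR).

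Btc, encoding betacellulin, and Tgfa, encoding transforming growth factor alpha, were at or near the limit of detection. Btc had 24, 4 and 21 deposited counts in control, 25, 26 and 0 in H2O2 and, with pretreatment, 10, 21 and 25, which is at most 0.0849 FPKM in any library. Its groups overlapped throughout. The log2 fold change with H2O2 was 0.04 (95% interval -2.06 to 2.14, adjusted p = 0.994 by edgeR), so a change within that interval was not detectable at this depth. Tgfa had 0 counts in 8 libraries and 4 in pretreated H2O2 replicate 3, below the floor, and no fold is given.

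**Figure D2:**
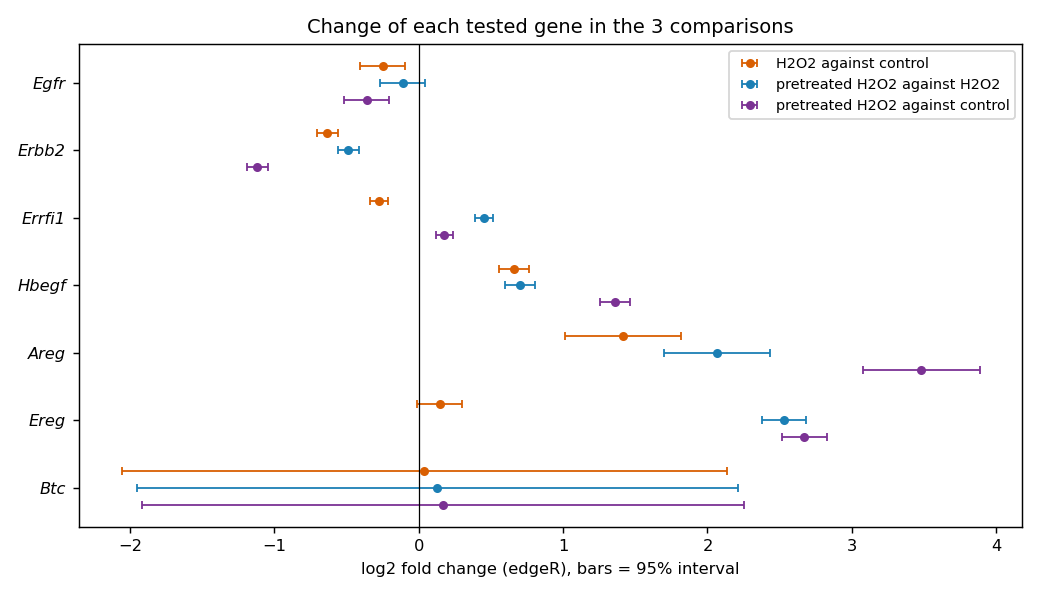
Log2 fold change of the 7 tested genes by edgeR in the 3 comparisons (colours), with 95% intervals (bars) from 3 libraries per group. Ereg lies at 0.14 with H2O2 and at 2.53 with pretreatment, Errfi1 changes sign between -0.28 and 0.45, and the intervals of Btc span from below -1 to above 2.

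Per length, the order of the genes differed between the groups. In control and in H2O2 it ran Errfi1, Erbb2, Hbegf, Ereg, Egfr, Areg, Btc and Tgfa by mean FPKM. Neighbours in that order did not overlap between libraries, except that Btc and Tgfa did in H2O2, where the lowest Egfr library, at 1.89 FPKM, was just above the highest Areg library, at 1.87. In pretreated H2O2 the order ran Errfi1, Ereg, Hbegf, Erbb2, Areg, Egfr, Btc and Tgfa, with no overlap between neighbours. Ereg and Hbegf stood above Erbb2 there, and Areg above Egfr.

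Summed over the 5 ligand genes, the level came to 9.53 ± 0.151 FPKM in control, 14.2 ± 0.292 in H2O2 and 39.9 ± 1.33 in pretreated H2O2 (SD, n = 3). The libraries lay at 9.47, 9.42 and 9.70 FPKM, at 14.3, 14.5 and 13.9, and at 41.0, 38.4 and 40.4, without overlap. The sum was 1.5-fold control in H2O2, and pretreated H2O2 was 2.8-fold H2O2 and 4.19-fold control. Each of the 3 comparisons gave a two-sided exact permutation p of 0.1, the smallest that 3 libraries against 3 allow. Hbegf made up 62.1 ± 3.99% of the sum in control and 65.1 ± 1.69% in H2O2, and 36.9 ± 0.650% in pretreated H2O2. Ereg made up 30.5 ± 2.74%, 22.4 ± 0.562% and 45.2 ± 0.705%, and Areg 6.80 ± 1.67%, 12.1 ± 0.844% and 17.8 ± 0.471%. Without Hbegf the pretreated sum was 5.06-fold that of H2O2 and 6.97-fold that of control.

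**Figure D3:**
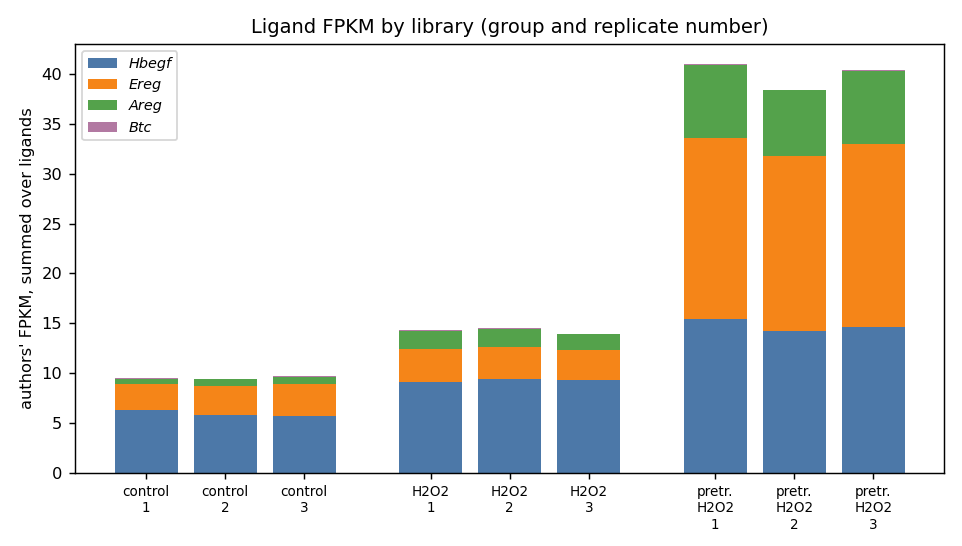
The authors' FPKM of the ligand genes, stacked for each of the 9 libraries, on a linear axis from 0; Tgfa is too low to be seen and is not drawn. The summed height is 9.42 to 9.70 in control, 13.9 to 14.5 in H2O2 and 38.4 to 41.0 in pretreated H2O2, where the Ereg portion is the largest.

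On chromosome 5, Ereg and Areg are 45952 bases apart and Areg and Btc 208828. The neighbouring ligand gene Epgn, which encodes epigen (91027464 to 91035215, plus strand), was at 0.109, 0.169 and 0.170 FPKM in the 3 groups, and neither it nor Btc was called in any comparison. The non-coding gene Gm19610 (ENSMUSG00000107350, minus strand, 91051871 to 91074773) overlaps the start of Ereg by 152 bases. Its mean level was 1.21 ± 0.199 FPKM in control, 1.49 ± 0.460 in H2O2 and 5.82 ± 0.778 in pretreated H2O2. Gm19610 was 3.93-fold higher in pretreated H2O2 than in H2O2 (log2 fold change 1.97, SE 0.275, adjusted p = 4.17e-05 by edgeR). The libraries kept strand, but whether counting used it is not given in the sources used here, so reads of the shared 152 bases cannot be told apart. Gm19610 held 504 deposited counts in pretreated H2O2 against 15726 for Ereg. Erbb2 shares 9 bases with Mien1, and the antisense genes Egfros in Egfr and 1700045H11Rik at Errfi1 held at most 32 counts over any group.

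Pathway genes outside the 8 were described in 7 lists taken from textbook roles. The lists were chosen with earlier results of these data known, which their counts may reflect. Of their 91 genes, 87 were tested. In H2O2 against control 23 were called higher and 47 lower, in pretreated H2O2 against H2O2 40 and 33, and in pretreated H2O2 against control 33 and 37. Over all tested genes, 48.7%, 63.6% and 63.1% were called in these comparisons, with 24.6%, 32.4% and 33.7% higher and 24.1%, 31.3% and 29.5% lower, and a list count near these shares says nothing particular about the list. The median log2 fold change over all tested genes was 0.02, 0.02 and 0.06 in the 3 comparisons. Levels of these genes are TMM-scaled CPM, and each gene named as rising or falling passed the edgeR test with no overlap between libraries. Among 8 other receptors and ligands of the family, Erbb4, Nrg2 and Nrg3 never passed the floor, and 1 of the 5 tested, Nrg1, was called in each comparison, always higher. Nrg1, encoding neuregulin, a ligand of ERBB3 and ERBB4, rose from 74.1 ± 2.45 to 83.4 ± 2.67 CPM with H2O2 (adjusted p = 0.00212) and to 91.9 ± 3.35 with pretreatment (adjusted p = 0.006). The step with pretreatment was not called with the length and GC offsets (log2 fold change 0.08) or with limma on FPKM, while the offsets raised the log2 fold change with H2O2 from 0.17 to 0.43. Egf itself was at 1.46 ± 0.199 CPM in control and was not called in any comparison.

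The list of 10 genes of ligand release holds metalloproteases, the iRhom regulators and an inhibitor. In H2O2 against control none were called higher and 7 lower, with a median log2 fold change of -0.31, but with the length and GC offsets 4 were higher and 5 lower, with a median of -0.01. The metalloprotease genes Adam19 and Adam9 fell most, from 96.2 ± 1.78 to 57.6 ± 2.37 CPM and from 188 ± 3.28 to 121 ± 2.76 CPM. With the length and GC offsets the fall of Adam19 was -0.25 on the log2 scale, against -0.74. Pretreated H2O2 had 4 higher and 3 lower than H2O2, with a median of 0.16. Timp3, an inhibitor of metalloproteases that include ADAM17, rose 8.82-fold to 1222 ± 29.1 CPM from 139 ± 2.10 in H2O2 (log2 fold change 3.14, SE 0.0263, adjusted p = 4.35e-16 by edgeR). Adam12 rose 1.51-fold, and Adam19 and Rhbdf1, which encodes iRhom1, fell. Under the offsets Adam12 changed by 0.36 on the log2 scale, against 0.59, Adam19 by -0.64, against -0.41, and Rhbdf1 by -0.37, against -0.19. Adam17, the protease that releases several of these ligands, fell from 84.1 ± 2.07 to 68.2 ± 2.80 CPM with H2O2 (adjusted p = 1.98e-05 by edgeR) and stood at 71.9 ± 2.01 in pretreated H2O2 (adjusted p = 0.0967 against H2O2). Adam17 is named with its values already known. Against control, 2 of the 10 were higher and 6 lower, with a median of -0.18, or 3 higher and 5 lower with a median of -0.06 with the offsets.

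Of 17 genes that relay the signal to Ras and ERK, 7 were higher and 8 lower with H2O2, 5 higher and 9 lower with pretreatment, and 4 higher and 9 lower in pretreated H2O2 against control. The medians were -0.05, -0.13 and -0.14, the first of which turned to 0.05 with the length and GC offsets. Against control the offsets gave 8 higher and 8 lower, with a median of -0.04, and in pretreated H2O2 against H2O2 the median was -0.07 with RLE scaling. The GTPase gene Hras rose from 49.5 ± 0.818 to 67.8 ± 3.91 CPM with H2O2 and the kinase gene Mapk3 from 147 ± 3.84 to 179 ± 3.52, while the kinase gene Braf fell from 66.9 ± 4.83 to 39.8 ± 1.59 CPM. Sos2, encoding a Ras exchange factor, fell from 23.998 ± 2.50 to 13.9 ± 1.11 CPM with H2O2 and rose to 27.4 ± 2.67 with pretreatment. With the offsets the log2 fold changes with H2O2 were 0.10 for Mapk3, -0.14 for Braf and -0.50 for Sos2, all in the same direction. With pretreatment the phosphatase gene Ptpn11 rose 1.68-fold, and the scaffold gene Ksr1 and Mapk3 fell, by log2 fold changes of -0.45 and -0.44 that were -0.68 and -0.28 with the offsets. Against control, pretreated H2O2 had 1.41-fold more of the adaptor Grb2, more Hras and less Ksr1 and Gab1. In the 11 genes of the PI3K, PLC and STAT branches none were higher and 8 lower with H2O2 (median -0.26), but with the offsets 3 were higher and 2 lower, with a median of 0.02. Pik3r1, the regulatory subunit of PI3K, fell from 72.5 ± 2.31 to 40.8 ± 1.33 CPM, and with the offsets the fall was -0.39 on the log2 scale in place of -0.83. Pik3ca fell too, a call that the offsets ended at -0.01. With pretreatment 3 were higher and 7 lower (median -0.28), led by a 2.72-fold fall of Stat5a, a transcription factor, and a 1.74-fold fall of Pik3cb, while Pik3ca and Akt2 rose, by 0.32 and 0.20 on the log2 scale and by 0.14 and 0.09 with the offsets. Against control, 2 were higher, Akt1 and Akt2, and 9 lower, with a median of -0.53 that was -0.35 with the offsets. There the log2 fold changes of Akt1 and Akt2 were 0.12 and 0.16, and 0.21 and 0.32 with the offsets.

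The 16 feedback inhibitors gave most of their calls downward with H2O2 and most upward with pretreatment, 2 comparisons that share the H2O2 libraries. With H2O2, 2 were higher and 13 lower (median -0.49), beside 24.1% of all tested genes lower. With the offsets 1 was higher and 10 lower, with a median of -0.29. With pretreatment 10 were higher and 4 lower (median 0.53), beside 32.4% of all tested genes higher. The offsets gave 9 higher and 5 lower there, with a median of 0.40. Spred2, an inhibitor of Ras signalling, fell from 41.5 ± 1.87 to 21.3 ± 1.12 CPM with H2O2 and Spry1 from 1.77 ± 0.436 to 0.751 ± 0.171, while Socs3, which limits cytokine signalling, rose from 23.1 ± 1.23 to 32.6 ± 2.25 CPM. Rnf41 also rose, with an adjusted p of 0.0439 by edgeR that missed the threshold with RLE scaling, total counts and DESeq2, among other settings, and without any 1 of control replicates 1 to 3 or H2O2 replicates 1 and 3. With pretreatment Dusp5, a phosphatase of ERK, rose 4.74-fold to 212 ± 0.443 CPM from 44.7 ± 1.28 in H2O2 (log2 fold change 2.25, SE 0.0503, adjusted p = 2.63e-12 by edgeR). Spry4, from the Sprouty family, rose 6.31-fold to 3.00 ± 0.578 CPM from 0.474 ± 0.0606 in H2O2 (adjusted p = 8.82e-07 by edgeR). Socs3 fell 2.22-fold and Lrig3, encoding a membrane protein of the LRIG family, 1.63-fold. Against control, pretreated H2O2 had 6 higher, led by Spry4 and Dusp5, and 7 lower, led by Spry1 and Socs5, with a median of -0.05 that turned to 0.11 with the offsets.

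Of 14 genes of receptor endocytosis and degradation 13 were tested. With H2O2 4 were higher and 5 lower, with a median of 0.02 that turned to -0.0017 with RLE scaling. With the length and GC offsets 7 were higher and 3 lower, with a median of 0.09. The ubiquitin ligase gene Cbl, whose product marks the active receptor for degradation, fell with H2O2 from 114 ± 3.28 to 50.04 ± 0.796 CPM, by edgeR (log2 fold change -1.19, SE 0.0292, adjusted p = 1.22e-11 by edgeR) and with pretreatment was back at 115 ± 0.275 CPM, a rise (log2 fold change 1.21, SE 0.0291, adjusted p = 4.59e-12 by edgeR). Its relative Cblb was at 35.6 ± 1.09, 20.6 ± 1.63 and 43.8 ± 3.16 CPM in the 3 groups. With the offsets the falls with H2O2 were -0.45 for Cbl and -0.38 for Cblb, and the rises with pretreatment were 0.91 and 0.94. The return of Cbl to its control level thus depended on this setting. Cdc37, a co-chaperone of kinases, and Tsg101, of the sorting machinery, rose 1.32-fold and 1.31-fold with H2O2, by log2 fold changes of 0.40 and 0.38 that were 0.98 and 0.25 with the offsets. With pretreatment 7 were higher and 5 lower (median 0.14), Sh3kbp1 and Tsg101 among the latter, the second of which lost its call with RLE scaling, DESeq2, a filter at 1 CPM and the offsets. Against control, 8 were higher and 2, Eps15 and Usp8, lower (median 0.18). The chaperone gene Hsp90aa1 led at 1.53-fold, and with the offsets Usp8 stood at -0.08 on the log2 scale, against -0.17, and the call of Eps15 was lost. The fall of Sh3kbp1 with pretreatment was -0.35 with the offsets, against -0.21.

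The last list holds 15 transcripts known to respond to EGF in cultured cells. With H2O2 9 were higher and 6 lower (median 0.28), with pretreatment 10 higher and 5 lower (median 0.74), and against control 10 higher and 4 lower (median 0.29). With the offsets the medians were 0.12, 0.91 and 0.47. The AP-1 genes differed from one another. Fosb stood at 5.97 ± 0.176, 13.3 ± 0.599 and 25.8 ± 1.27 CPM in control, H2O2 and pretreated H2O2. Fos rose from 21.4 ± 1.57 to 41.7 ± 1.49 CPM with H2O2 and was 3.43-fold lower with pretreatment, at 12.2 ± 0.438. Fosl1 was at 16.2 ± 0.251, 19.7 ± 1.82 and 132 ± 4.00 CPM and rose 6.70-fold with pretreatment (log2 fold change 2.75, SE 0.0580, adjusted p = 1.58e-12 by edgeR). The transcription factor gene Etv5 fell from 12.0 ± 0.513 to 5.97 ± 0.637 CPM with H2O2 and rose to 18.8 ± 3.36 with pretreatment. Ier2 fell 1.56-fold with H2O2. Ccnd1, the gene of cyclin D1, stood at 267 ± 1.57, 237 ± 1.58 and 103 ± 3.04 CPM, a 2.29-fold fall with pretreatment.

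**Figure D4:**
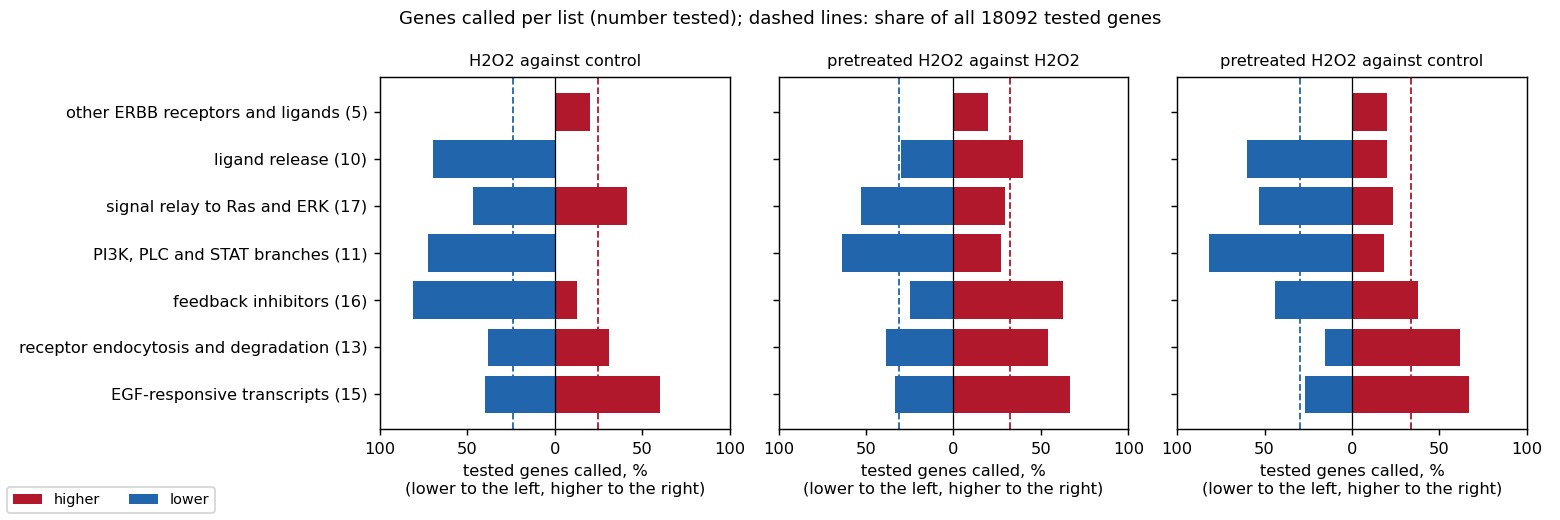
Share of the tested genes of each pathway list that edgeR called higher (red, to the right) or lower (blue, to the left) in each comparison; the dashed lines are the shares of all 18092 tested genes and the number tested stands after each list's name. In the feedback inhibitors 13 of 16 are lower with H2O2 and 10 of 16 higher with pretreatment, beside 24.1% and 32.4% of all tested genes.

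The genes whose course over the 9 libraries was most like each of the 8 were found by the root mean square difference of log2 CPM after subtracting each gene's control mean, among 12886 genes of at least 1 CPM on average. Btc and Tgfa were below that level. For Erbb2 these were Ksr1 (0.04), Sec16b (0.04) and Acaca (0.05), and for Egfr Pyroxd2 (0.03), Tmem263 (0.04) and Ppp2r5e (0.05). Errfi1 was most like Tmed7 (0.03), Abr (0.03) and Hus1 (0.03). Clba1 (0.07), Gm12226 (0.10) and Pidd1 (0.10) were nearest to Hbegf. For Ereg they were Pvr (0.08), Slc19a2 (0.08) and Ifitm10 (0.16), and for Areg, with the widest differences, Dusp2 (0.23), Btg2 (0.24) and Rnf225 (0.30). The libraries and their scaling are shared by all genes, and likeness of course is a description.

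**Figure D5:**
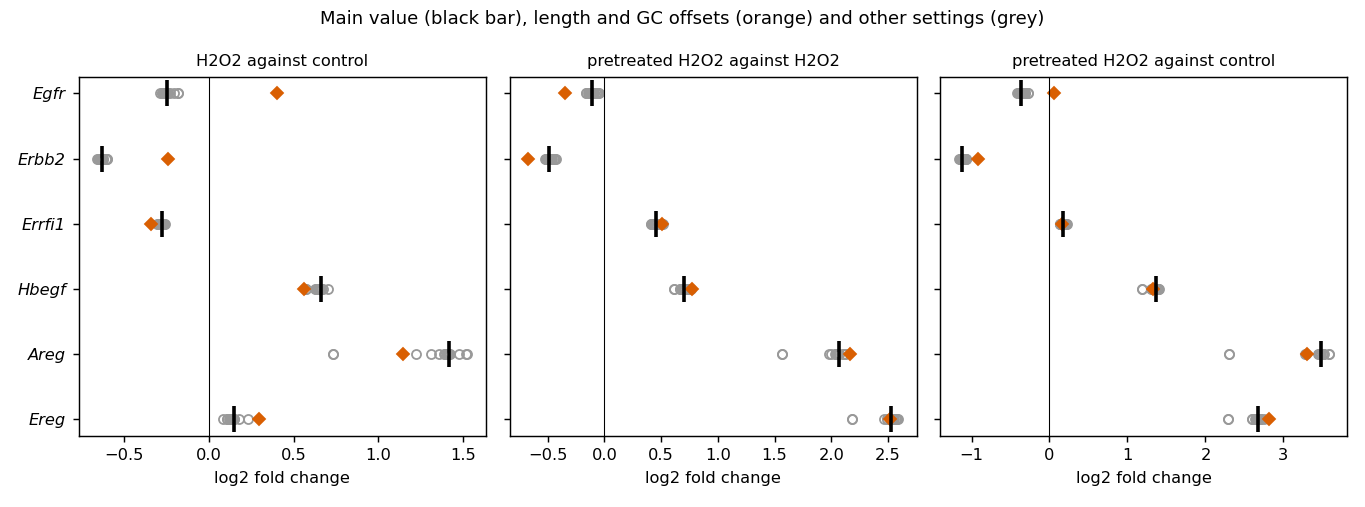
Log2 fold changes of 6 genes in the 3 comparisons under the main processing (black bars), with the length and GC offsets (orange) and under the other settings (grey). Erbb2, Errfi1, Hbegf, Areg and Ereg keep their sides of 0 in each comparison under all settings drawn, and Egfr moves from -0.25 to 0.40 with the offsets in H2O2 against control.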

How the data were processed

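RNA-seq of 9 libraries was analysed. Per the labels' protocols, polyadenylated RNA was selected from TRIzol extracts, the dUTP method kept strand, and reads were paired, of 150 bp. The authors deposited estimated counts in whole numbers for 55401 genes, and FPKM for the 30411 with a count. The submitters' processing notes name only build hg38, but the tables hold mouse gene identifiers and GRCm38 coordinates: 30318 of 30411 matched GENCODE M21. No source used here gives the aligner or the counter.

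The deposited counts, estimated and in whole numbers where raw counts had been assumed, were tested in edgeR 4.0.16 (R 4.3.3): TMM scaling, filterByExpr, a quasi-likelihood fit of all 9 libraries, Benjamini-Hochberg adjustment over 18092 genes and calls at 0.05. limma 3.58.1 on log2 FPKM (pseudocounts 1 and 0.1) and DESeq2 1.42.0 were alternatives. CPM used TMM-scaled library sizes; course likeness used a prior count of 2. Length and GC offsets were loess trends over the longest transcript. Floors cover counting error only, while the 95% intervals of edgeR include the spread between libraries. Permutation tests used scipy 1.17.1. All 8 genes were named, and from each list up to 2 called rises and 2 falls per comparison with at least 1 CPM and no overlap. Further genes are Adam17, Egf and those overlapping or beside the 8. Members and lists were chosen with earlier results of these data known.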

Additional observations from a re-analysis of the deposited data

How the results depend on the processing

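Of 342 recomputed values of the 6 tested genes other than Btc, over 22 settings where each could be fitted, 332 kept their direction and side of the threshold. The exceptions concern Egfr and Ereg. With length and GC offsets Egfr turned to 0.40 in H2O2 against control and 0.053 in pretreated H2O2 against control (log2), also with the replicate block added (0.40 and 0.0512), and was called at -0.35 in pretreated H2O2 against H2O2. The cause was not tested. The offsets called 6856, 11429 and 11201 genes in the 3 comparisons, of which 5403, 10544 and 9951 kept the call and direction and 409, 68 and 166 had the opposite one. Ereg in H2O2 against control passed the threshold with the offsets (0.30, also with the replicate block) and without control replicate 3, and Egfr missed it without H2O2 replicate 2 (-0.20). Leaving out libraries moved Btc between -0.40 and 0.62, between -0.46 and 0.57, and between -0.27 and 0.57 in the 3 comparisons, and the replicate block turned it to -0.045 in the first, none of them called. The summed ligand fold was 1.53, 2.49 and 3.80 as CPM per kilobase of the longest transcript, and 1.38, 5.06 and 6.97 without Hbegf. Leaving out 1 library gave 1.48 to 1.51, 2.77 to 2.86 and 4.14 to 4.27. Of the pathway genes named by rule, 1311 recomputed values kept their call, 30 lost it and 0 turned.

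Replicate numbers did not pair the libraries: deviations of same-numbered libraries correlated at -0.02 to 0.05 across genes. The replicate block gave 8603, 11322 and 11181 calls and changed no call of the 8 genes. Depth limited Btc and Tgfa most, at up to 26 and 4 counts a library.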
